A study of Mus musculus with 6 samples.

Results

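Heat shock proteins and their DnaJ co-chaperones fold newly made proteins, refold damaged ones and carry proteins into the endoplasmic reticulum (ER) and the mitochondrion. The 66 genes described here were matched by symbol, in a choice made with earlier results of these data known. These were the HSP90, HSP70, HSP110, HSP60, HSP10 and small HSP genes and the DnaJ genes of classes A, B and C, without pseudogenes. They are 66 of the 22377 genes counted in macrophages of LLC tumors, and 59 of them, against 13884 of all genes, had enough counts to be tested. No member passed the test between the groups. The stress-inducible HSP70 genes Hspa1a and Hspa1b were lower in each library labelled ko than in each wt library, by 0.64 and 0.66 on the log2 scale. Of 13 genes listed as stress-inducible, however, 9 had an estimate above 0 and 4 below. The mitochondrial chaperones Hspd1 and Hspa9 and the ER co-chaperone Dnajb9 were higher in each library labelled ko, by 0.77, 0.51 and 0.64. Of the 9 tested mitochondrial members, though, 5 had an estimate above 0 and 4 below.

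The tumors grew under the skin from LLC cells, a line of Lewis lung carcinoma from the mouse, in mice of both sexes that were some weeks old. By label, 3 libraries are wt and 3 are ko or knockdown, each labelled as a separate sample. One account of this sequencing names 2 individual mice, so whether the 3 samples of a group came from 3 mice is not known. The groups of the study are Npm1+/+ mice and Npm1+/- mice, which lack 1 copy in all their cells, while the grafted tumor cells are the same line in both. The material was given as CD45+ CD11b+ F4/80+ cells taken by sorting, whereas the labels name tumor tissue, TRIzol and a small RNA library, and these accounts were not reconciled here.

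Levels are given as CPM, counts relative to the total of a library after TMM scaling, in the order of replicates 1, 2 and 3. Differences are the log2 fold change of the ko libraries against the wt libraries with its standard error (SE). They come from the quasi-likelihood test of edgeR, with p-values adjusted by Benjamini-Hochberg for every gene tested. Total counts were between 36550775 and 38147320, so that 3 counts, the most that a count of 0 allows, were between 0.0716 and 0.0845 CPM, counting error alone. Npm1, the targeted gene, was at 142, 380.2 and 381 CPM in the wt libraries and at 441, 499 and 343 CPM in the others (log2 fold change 0.51, SE 0.36, adjusted p = 0.436, and 0.16 without wt replicate 1). Its estimate was not below 0 in the ko libraries with or without that library, and they are therefore called ko-labelled throughout. Wt replicate 1 stood apart from the other 5 libraries, at -108 on a first principal component that held 68.0% of the variance, against -4.54 to 52.0. It was the lowest library for 23 of the 59 tested members (39%) and the highest for 22 (37.3%), against 33.5% and 33% of all genes tested. Values without it are given where it moved a printed estimate or class median by over 1.5 times, except for marker genes. Estimates of marker genes are from all libraries only, and may depend on wt replicate 1. The p-values measure the spread between these 6 samples, which may be technical.

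HSP70 proteins bind exposed hydrophobic stretches of a client protein in a cycle of ATP hydrolysis. DnaJ proteins deliver the client and set off hydrolysis through their J domain, and HSP110 proteins release the nucleotide. HSP90 acts later, on nearly folded clients such as kinases and steroid receptors, whereas HSP60 encloses clients inside the mitochondrion together with its lid, HSP10. Heat shock factor 1 induces the cytosolic members under stress by binding heat shock elements, and the unfolded protein response induces the ER members. In macrophages the ER members serve the secretion of cytokines and the assembly of surface receptors.

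Compared per length, on the FPKM scale, the members were dominated by a few genes, as the ranking of abundance shows. Hspa8, the constitutive cytosolic HSP70, had the highest mean over the 6 libraries, at 1086 FPKM. Next came Hsp90ab1, the constitutive cytosolic HSP90, at 731, and Hspa5, the ER HSP70 known as BiP, at 714. Hspa1b and Hspa1a, known for low levels in unstressed cells, followed at 378 and 359 FPKM in these libraries, then Hsp90b1, the ER HSP90, at 267 and the inducible Hsp90aa1 at 259. The HSP70 class held 55.6% of the FPKM of all members and HSP90 held 26.3%, whereas the 26 class C DnaJ genes together held 6.10%. Of the 59 tested members, 8 had a mean over 100 FPKM. In each library the members together accounted for 0.936% to 1.32% of all FPKM.

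**Figure D1:**
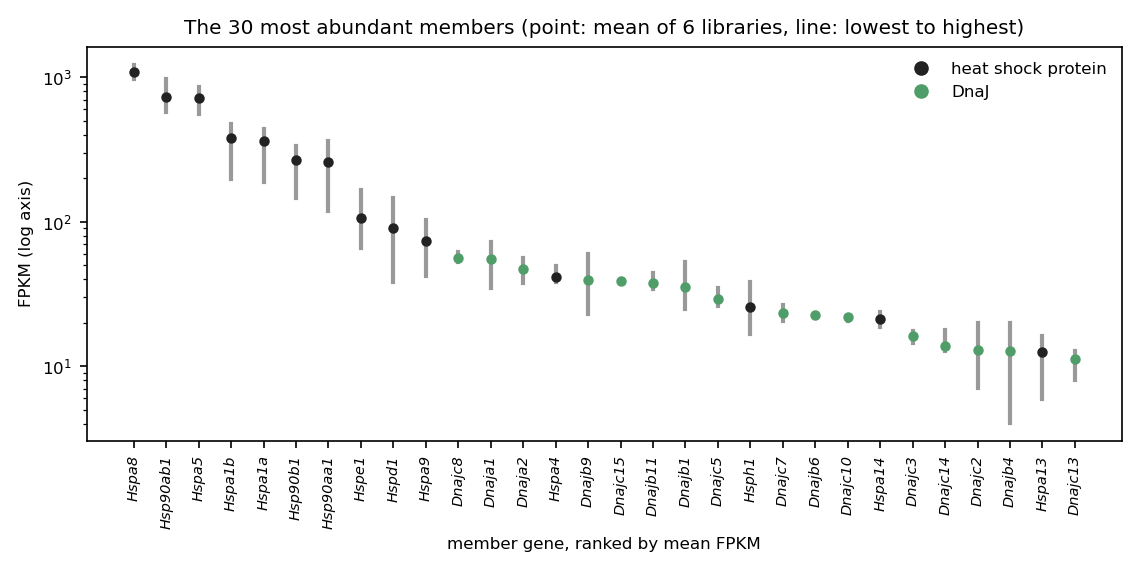
Level per length (FPKM, log axis) of the 30 members with the highest mean, ranked. The point is the mean of the 6 libraries and the line runs from the lowest to the highest library, with heat shock proteins in black and DnaJ genes in green. Hspa8, Hsp90ab1 and Hspa5 lead at 1086, 731 and 714 FPKM, and the most abundant DnaJ genes, Dnajc8 and Dnaja1, are at 55.9 and 55.2.

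Between the groups, 0 of 59 members had an adjusted p under 0.05 by edgeR, against 0% of all genes tested, and the smallest adjusted p of a member was 0.328. DESeq2 also called 0 members, where it called 0.778% of all genes. At an unadjusted p under 0.05, edgeR gave 11 members, or 18.6%, against 15.2% of all genes. Of these 11, 6 were higher in the ko-labelled libraries (background 6.90%) and 5 were lower (background 8.31%). Groups did not overlap for 15 members, or 25.4%, against 25.9% of all genes, 9 of them higher (background 13.3%) and 6 lower (background 12.6%). These shares were near those of all genes. On log2 FPKM, which has no TMM scaling, limma gave 12 members higher (background 15.9%) and 1 lower (background 4.03%) at an unadjusted p under 0.05 with a pseudocount of 1, and 12 (background 14.7%) and 0 (background 4.02%) with a pseudocount of 0.1, on a scale where the median of all genes was itself at 0.09 and 0.16. The median log2 fold change of the members was 0.05 and that of all genes was 0.02, and 33 members had an estimate above 0 (background 52.1%) and 26 below (background 47.9%).

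**Figure D2:**
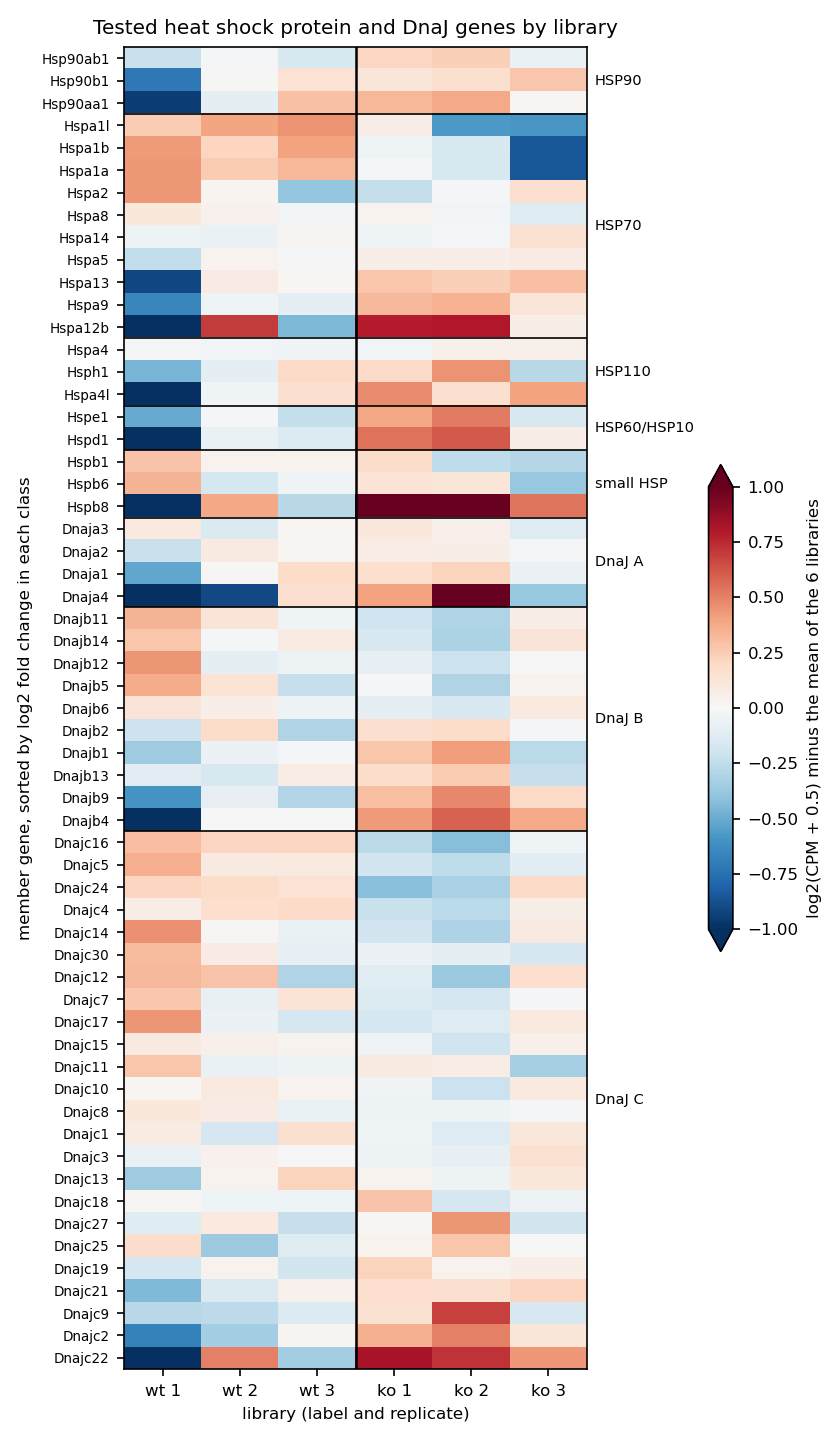
Each row is 1 of the 59 tested members and each column 1 library. The color is log2(CPM + 0.5) minus the mean of the 6 libraries, cut at 1 in either direction, with red above the mean and blue below it. Classes are set apart by lines. Hspa1l, Hspa1a and Hspa1b are above their mean in all 3 wt libraries, while Hspd1 and Dnajb9 are above theirs in all 3 ko-labelled libraries, and wt replicate 1 holds many of the darkest cells.

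The inducible HSP70 genes were lower in the ko-labelled libraries by estimate. The wider list of 13 stress-inducible genes had a median log2 fold change of 0.30, or 0.13 without wt replicate 1. Of these 13, 9 had an estimate above 0 (background 52.1%) and 4 below (background 47.9%). Hspa1a was at 1315, 1159.7 and 1221 CPM in the wt libraries and 956, 869.9 and 540.4 CPM in the ko-labelled libraries, a mean of 1232 ± 78.0 against 789 ± 219.6 (SD, n = 3 each). The groups did not overlap, and ko-labelled replicate 3 was the lowest library by a wide margin. The log2 fold change was -0.64 (SE 0.22, edgeR adjusted p = 0.328), with estimates between -0.81 and -0.44 when any 1 library was left out. Hspa1b, its neighbouring copy, was at 1376, 1190.1 and 1358 CPM in the wt libraries and 993, 922 and 570.3 CPM in the ko-labelled libraries, again without overlap (log2 fold change -0.66, SE 0.22).

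Hspa1a (chr17:34969190-34972156) and Hspa1b (chr17:34956436-34959238) lie on the minus strand of GRCm38, 9951 bases apart, with Hspa1l (chr17:34972703-34979285) 546 bases beyond Hspa1a on the plus strand. Reads can be shared between the copies: 47.1% of all stretches of 100 bases in the Hspa1a transcript also occur in Hspa1b, and 49.9% of those of Hspa1b occur in Hspa1a. How the authors assigned such reads is not given in the sources used here, so the level of each copy alone is uncertain. The counts of Hspa1a over those of Hspa1b lay between 0.899 and 0.974 in every library. With the counts of both genes summed, a treatment chosen after the data were seen, the level was 2691, 2350.0 and 2579 CPM in the wt libraries and 1949.5, 1792 and 1111 CPM in the ko-labelled libraries. The summed log2 fold change was -0.65 (SE 0.22, edgeR adjusted p = 0.328), at -0.61 without wt replicate 1 and -0.45 without ko-labelled replicate 3. Set against Hspa8 on the FPKM scale, Hspa1a and Hspa1b together were 0.822, 0.751 and 0.866 of it in the wt libraries and 0.627, 0.602 and 0.398 in the ko-labelled libraries.

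Hspa1l, a further gene of the cluster that is best known from testis, was far lower in level. It was at 4.58, 5.13 and 5.32 CPM in the wt libraries and 3.97, 2.36 and 2.35 CPM in the ko-labelled libraries, without overlap (log2 fold change -0.79, SE 0.29). Of its own 100-base stretches, 5.65% occur in Hspa1a and 3.75% in Hspa1b, and 4.67% of those of Hspa1a occur in it. Hspa1a was at 540.4 CPM or more in every library, so a few shared reads could weigh on the low level of Hspa1l. Its level and estimate apart from Hspa1a are therefore uncertain. The 15 immediate early genes, which like Hspa1a respond to cell handling within minutes to hours, summed to 12269 to 17260 CPM in the wt libraries and 8997 to 13413 CPM in the ko-labelled libraries. These ranges overlapped, 7 of the 15 had an estimate above 0 and 8 below, and their part in the values of Hspa1a was not tested.

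The other HSP70 genes did not follow Hspa1a. Hspa8 was among the steadiest members, with 1.17-fold between its highest and lowest library. It was at 2457, 2346 and 2236 CPM in the wt libraries and 2333, 2232 and 2094 CPM in the ko-labelled libraries, which overlapped (log2 fold change -0.08, SE 0.14, -0.05 without wt replicate 1, but 0.07 on log2 FPKM by limma). Hspa5 was at 1567, 1904 and 1843 CPM in the wt libraries and 1946, 1939 and 1961 CPM in the ko-labelled libraries. Every ko-labelled library of Hspa5 lay above every wt library, yet the estimate was small, at 0.14 (SE 0.14) and at 0.05 without wt replicate 1. Hspa13, an HSP70 of the ER and microsomes, was at 31.9, 63.8 and 61.1 CPM in the wt libraries and 73.2, 71.1 and 74.6 CPM in the ko-labelled libraries. Its groups did not overlap, and its log2 fold change of 0.48 (SE 0.25) came to 0.22 without wt replicate 1.

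Hspa9, the mitochondrial HSP70 or mortalin, imports and folds matrix proteins. It was at 138, 209.5 and 203 CPM in the wt libraries and 271, 275 and 235 CPM in the ko-labelled libraries, a mean of 183 ± 39.6 against 260.2 ± 22.2 (SD, n = 3 each). The groups did not overlap, with wt replicate 1 the lowest. Its log2 fold change was 0.51 (SE 0.18, edgeR adjusted p = 0.328) and 0.33 without wt replicate 1. Hspa14, which binds ribosomes, and Hspa2, which serves in testis, had estimates of 0.06 and -0.08, the latter 0.15 without that library. Hspa12b, a distant HSP70 known from endothelium, was at 0.422, 5.05 and 2.00 CPM in the wt libraries and 5.39, 5.44 and 3.06 CPM in the ko-labelled libraries. These overlapped, and wt replicate 1 was the lowest, for a range of 12.9-fold. Hspa12a had at most 15 counts in a library and was not tested.

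**Figure D3:**
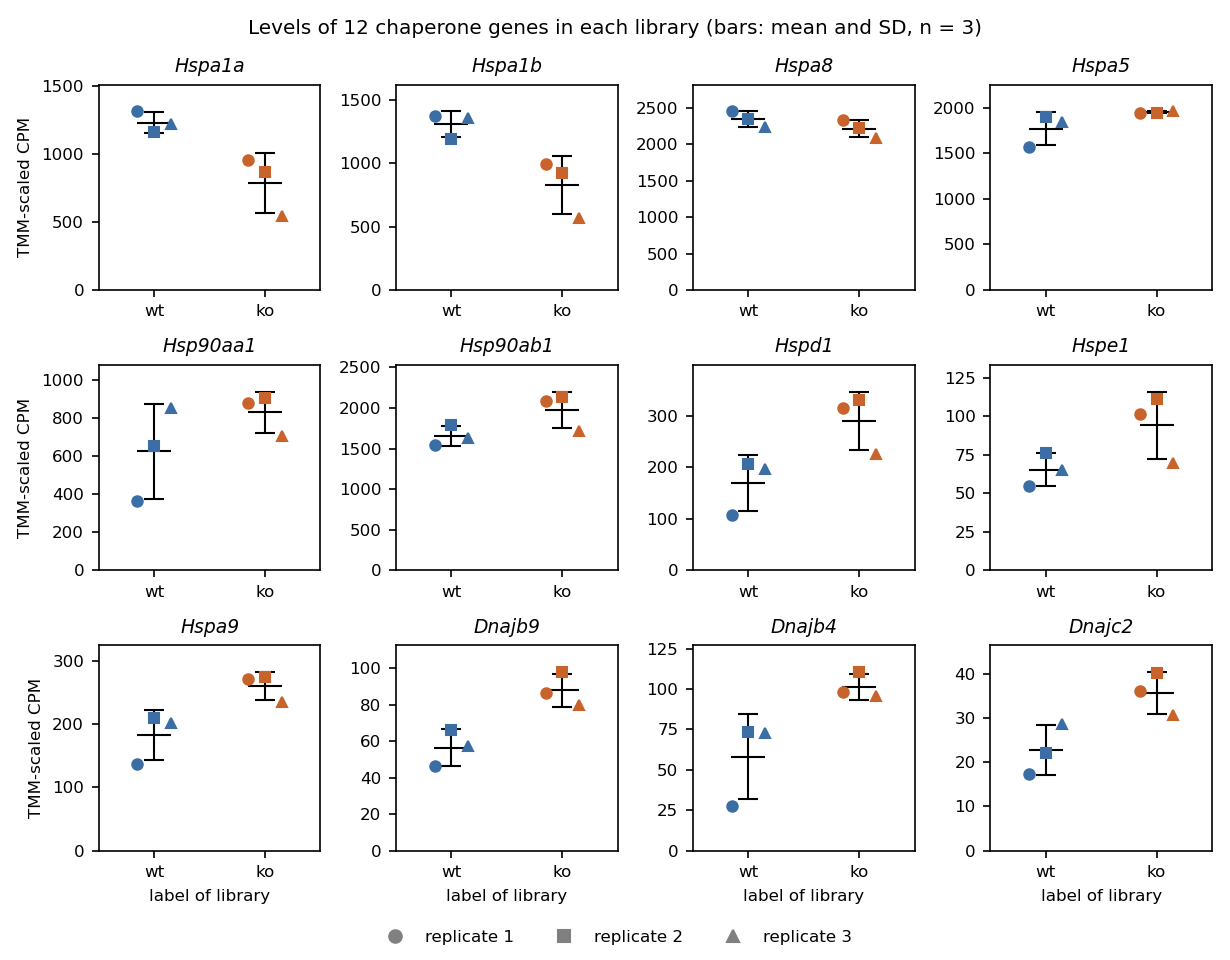
TMM-scaled CPM of 12 members in each library, on axes that start at 0. Circles, squares and triangles are replicates 1, 2 and 3, the horizontal bar is the mean and the error bar the SD (n = 3). Hspa1a and Hspa1b are lower in each ko-labelled library, Hspa8 overlaps, and Hspd1, Hspa9, Dnajb9, Dnajb4 and Dnajc2 are higher in each ko-labelled library, with wt replicate 1 the lowest.

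The mitochondrial chaperonin pair was higher in the ko-labelled libraries by estimate. Over the 9 tested mitochondrial members the median log2 fold change was 0.02, or 0.07 without wt replicate 1. Of these 9, 5 had an estimate above 0 (background 52.1%) and 4 below (background 47.9%). Hspd1, which encodes HSP60, was at 106, 206 and 197 CPM in the wt libraries and 314, 331 and 226 CPM in the ko-labelled libraries, a mean of 169.6 ± 54.9 against 290.2 ± 56.5 (SD, n = 3 each). The groups did not overlap, although ko-labelled replicate 3 lay nearer to the wt libraries than to its own group. The log2 fold change was 0.77 (SE 0.27, edgeR adjusted p = 0.328), and 0.52 without wt replicate 1. Hspe1, which encodes the lid HSP10, was at 54.4, 76.4 and 65.4 CPM in the wt libraries and 101, 111 and 69.7 CPM in the ko-labelled libraries. Its groups overlapped through wt replicate 2 and ko-labelled replicate 3 (log2 fold change 0.53, SE 0.20). The FPKM of Hspd1 over that of Hspe1 was 0.581, 0.798 and 0.893 in the wt libraries and 0.919, 0.882 and 0.960 in the ko-labelled libraries, lowest in wt replicate 1.

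Hspd1 (chr1:55077835-55088243, minus strand) and Hspe1 (chr1:55088132-55091307, plus strand) are read outwards from a shared start region, where the annotated genes overlap by 112 bases. Counting strand is not given in the sources used here, so reads from these bases cannot be told apart. The same holds where other members overlap an annotated gene, as Hspa8 does with Snord14c, Dnaja1 with Smu1, Hspa1a with Gm20481 and Dnajb9 with Mir5627. The promoter windows of RefSeq (GRCm38.p6), 250 bases before to 50 after a start site, were found for 53 of the 66 members and searched on both strands. Among the HSP90 genes only Hsp90b1 had a window, so Hsp90aa1 and Hsp90ab1 were not searched. Of the 11 HSP70 genes, 8 had a window. The heat shock element was spelled as GAA, any 2 bases, TTC, any 2 bases and GAA, or as its reverse complement, which starts and ends with TTC. It occurred in 4 members, namely Hspd1, Hspe1, Hsph1 and Dnajb6, or 7.55%, against 0.613% of the windows of all 16959 genes that had one. Only exact spellings were counted, so a window without a match was not shown to lack an element. The same site lay in the windows of Hspd1 and Hspe1 and was counted for both. It is printed as read on each gene's strand, since both genes had higher values together. The capitals mark 4 adjoining units of the element. The whole stretch printed, with its flanks, is at chr1:55088053-55088082 within an exon of Hspd1 as GENCODE annotates it.
Hspd1, minus strand: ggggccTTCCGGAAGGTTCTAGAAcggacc
Hspe1, plus strand: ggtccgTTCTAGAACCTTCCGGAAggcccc

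The shorter spelling with 1 GAA and 1 TTC in either order, any 2 bases apart, which the longer one contains, occurred in 14 members (26.4%) and in 15.2% of all windows. Hspa1a and Hspa1b had 1 each, with the same 30 bases around it, shown because these genes had lower values where Hspd1 had higher ones. Capitals mark the spelling, which lay 97 to 104 bases before the start site. The stretches printed lie outside any annotated gene, at chr17:34972242-34972271 and chr17:34959324-34959353 on the minus strand. Such a match is a description of letters and shows no binding.
Hspa1a: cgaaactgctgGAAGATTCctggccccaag
Hspa1b: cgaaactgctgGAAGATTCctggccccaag

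All 3 HSP90 genes had an estimate above 0, with a median log2 fold change of 0.33, or 0.13 without wt replicate 1. Hsp90aa1, the inducible cytosolic form, was at 363, 655 and 855 CPM in the wt libraries and 878, 906 and 705 CPM in the ko-labelled libraries. The groups overlapped, and wt replicate 1 was the lowest library (log2 fold change 0.41, SE 0.29, and 0.13 without that library). Hsp90ab1 was at 1544, 1791 and 1626 CPM in the wt libraries and 2079.7, 2130.0 and 1721 CPM in the ko-labelled libraries (log2 fold change 0.26, SE 0.15). Wt replicate 2 lay above ko-labelled replicate 3, so that these groups overlapped too. Hsp90b1, or GRP94, which folds integrins and Toll-like receptors in the ER, was at 434, 719 and 789 CPM in the wt libraries and 778, 799 and 867 CPM in the ko-labelled libraries. Its estimate of 0.33 (SE 0.22) was 0.11 without wt replicate 1.

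Among the HSP110 genes, the exchange factors of HSP70, Hspa4 was the steadiest member of all, with 1.06-fold between its highest and lowest library. Hspa4 was at 192, 189 and 189 CPM in the wt libraries and 189.8, 199.8 and 199.8 CPM in the ko-labelled libraries (log2 fold change 0.05, SE 0.10). Hsph1, the heat-inducible HSP110, was at 114, 147 and 181 CPM in the wt libraries and 181, 216 and 130.4 CPM in the ko-labelled libraries. It overlapped between the groups (log2 fold change 0.25, SE 0.23, and 0.09 without wt replicate 1). Hspa4l had an estimate of 0.60 (SE 0.31), which was 0.29 without wt replicate 1.

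Of the 6 small HSP genes, which hold unfolded proteins in solution without ATP, 3 were tested. Hspb1, or HSP27, was at 10.1, 8.37 and 8.37 CPM in the wt libraries and 9.33, 6.78 and 6.62 CPM in the ko-labelled libraries. It overlapped between the groups, and its mean level of 9.12 FPKM was far under that of Hspa1a (log2 fold change -0.24, SE 0.22, and -0.15 without wt replicate 1). Hspb8, which works with Bag3 in the disposal of misfolded proteins, was at 1.35, 18.2 and 11.3 CPM in the wt libraries and 34.1, 28.1 and 20.2 CPM in the ko-labelled libraries. The groups did not overlap, but wt replicate 1 lay far under every other library, for a range of 25.3-fold. The log2 fold change of 1.42 (SE 0.73) came to 0.90 without it. Hspb6 had an estimate of -0.10, which was 0.11 without wt replicate 1. Hspb2, Hspb7 and Hspb9 had at most 7 counts in any library and were not tested.

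The place of wt replicate 1 for the 12 fibroblast markers turned on Fn1, which macrophages are also known to express. With Fn1 included, wt replicate 1 was the highest library, at 5789.5 CPM, against 4462 and 4734 CPM in the other wt libraries and 3072 to 4703 CPM in the ko-labelled libraries. Without Fn1, which was left out after the data were seen, it was the lowest, at 38.1 CPM, against 331 and 549 CPM in the other wt libraries and 411 to 789 CPM in the ko-labelled libraries. All 11 genes without Fn1 had an estimate above 0, and Fn1 had one of -0.48. No marker of this list was at 0 in every library. The part of these cells in the values of Hspb8, Hspa12b, Dnajc22 and Dnajb4, which were lowest in the same library, was not tested. In bulk RNA, fewer cells of a type and less RNA per cell cannot be told apart.

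The class A DnaJ genes, the closest relatives of bacterial DnaJ, had a median log2 fold change of 0.13, or 0.04 without wt replicate 1. Dnaja1, a partner of cytosolic HSP70, was at 135, 195 and 220.2 CPM in the wt libraries and 218, 227 and 186 CPM in the ko-labelled libraries. It overlapped, and its estimate of 0.20 (SE 0.19) was 0.01 without wt replicate 1. Dnaja2 and the mitochondrial Dnaja3 had estimates of 0.07 and 0.02, which were -0.02 and 0.07 without that library. With all 6 libraries Dnaja4 had the largest estimate of the members tested, 1.69 (SE 0.73), at a level of 0.647, 0.761 and 2.14 CPM in the wt libraries and 2.62, 7.54 and 1.31 CPM in the ko-labelled libraries. It is named after its values were seen, and its groups overlapped around a single high library, ko-labelled replicate 2, without which the estimate was 0.72.

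In class B, Dnajb9 had the smallest p of all members (unadjusted p = 0.00440 by edgeR, adjusted p = 0.328). Dnajb9, or ERdj4 (chr12:44205559-44210326, minus strand), hands misfolded ER proteins to degradation and is a target of the unfolded protein response. It was at 46.3, 66.2 and 57.3 CPM in the wt libraries and 86.3, 98.0 and 80.0 CPM in the ko-labelled libraries, a mean of 56.6 ± 9.93 against 88.1 ± 9.10 (SD, n = 3 each). The groups did not overlap, and the lowest ko-labelled library lay above the highest wt library. The log2 fold change was 0.64 (SE 0.16), and it stayed between 0.51 and 0.76 when any 1 library was left out. Dnajb4, a cytosolic HSP70 partner, was at 27.7, 73.3 and 73.1 CPM in the wt libraries and 98.5, 110.5 and 95.4 CPM in the ko-labelled libraries. It did not overlap between the groups either, and its estimate of 0.81 (SE 0.34) was 0.47 without wt replicate 1. Dnajb1, the heat-inducible HSP40, was at 86.2, 106 and 109.5 CPM in the wt libraries and 134, 147 and 91.6 CPM in the ko-labelled libraries. These overlapped, as ko-labelled replicate 3 lay among the wt libraries (log2 fold change 0.30, SE 0.19, and 0.20 without wt replicate 1). Dnajb3 had at most 1 count in a library and was not tested.

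The other ER members gave smaller estimates than Dnajb9. The 9 members of the ER lumen had a median log2 fold change of 0.14, or 0.05 without wt replicate 1, with 6 of them above 0 and 3 below. Dnajb11, an ER co-chaperone of BiP, was lower by estimate at -0.29 (SE 0.15), and at -0.19 without that library. Dnajc3, which restrains the kinase PERK, was at 79.7, 86.3 and 83.9 CPM in the wt libraries and 80.6, 78.7 and 92.7 CPM in the ko-labelled libraries. Its estimate of 0.01 (SE 0.11) changed sign with the scaling and was -0.02 without wt replicate 1. The ER stress element, spelled as CCAAT, any 9 bases and CCACG on either strand, occurred in the promoter windows of Hspa5, Hsp90b1 and Dnajc3, or 5.66% of members, against 0.159% of all windows. Dnajb9 had no match to these letters in its window. The sites are shown because the element was rare among all windows, with capitals for the element, each read on the strand of its gene. Hsp90b1 had 2 matches, of which the second reads as the reverse complement.
Hspa5, chr2:34772020-34772048, plus strand, in an exon of Hspa5: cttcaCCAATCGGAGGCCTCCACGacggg
Hsp90b1, chr10:86705633-86705661, minus strand, outside annotated genes: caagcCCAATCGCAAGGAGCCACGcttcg
Hsp90b1, chr10:86705528-86705556, minus strand, outside annotated genes: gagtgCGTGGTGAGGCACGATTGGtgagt
Dnajc3, chr14:118937822-118937850, plus strand, outside annotated genes: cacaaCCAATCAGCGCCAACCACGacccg

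Class C, the most varied DnaJ genes, split in both directions, with 10 of 24 tested members above 0 and 14 below. Dnajc2, a co-chaperone at the ribosome, was at 17.5, 22.1 and 28.7 CPM in the wt libraries and 36.1, 40.1 and 30.6 CPM in the ko-labelled libraries. The groups did not overlap (log2 fold change 0.65, SE 0.21, and 0.48 without wt replicate 1). Dnajc21, which acts in ribosome assembly, was at 23.4, 28.9 and 33.0 CPM in the wt libraries and 35.9, 35.8 and 37.1 CPM in the ko-labelled libraries. It did not overlap either, at 0.35 (SE 0.15) and at 0.23 without wt replicate 1. Dnajc22 was at 0.112, 3.30 and 1.60 CPM in the wt libraries and 4.25, 3.91 and 3.12 CPM in the ko-labelled libraries, with wt replicate 1 at 4 counts. It overlapped between groups, and its estimate of 1.17 (SE 0.85) was 0.62 without that library.

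In the other direction, Dnajc5, the cysteine string protein of secretory vesicles, was at 176, 145 and 146 CPM in the wt libraries and 119, 114 and 127 CPM in the ko-labelled libraries. Every ko-labelled library lay under every wt library (log2 fold change -0.38, SE 0.12, and -0.28 without wt replicate 1). Dnajc16, an ER membrane protein, was at 16.3, 15.2 and 15.3 CPM in the wt libraries and 10.8, 9.59 and 12.7 CPM in the ko-labelled libraries. Its groups did not overlap, and its wt libraries were close to each other (log2 fold change -0.51, SE 0.17). Dnajc4 was at 13.3, 14.3 and 14.5 CPM in the wt libraries and 10.8, 10.4 and 13.2 CPM in the ko-labelled libraries, apart by a narrow margin (log2 fold change -0.29, SE 0.17). The remaining class C members are shown in the plot of fold changes. Dnajc28 and Dnajc6 were not tested, with at most 39 and 18 counts, both in ko-labelled replicate 2.

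**Figure D4:**
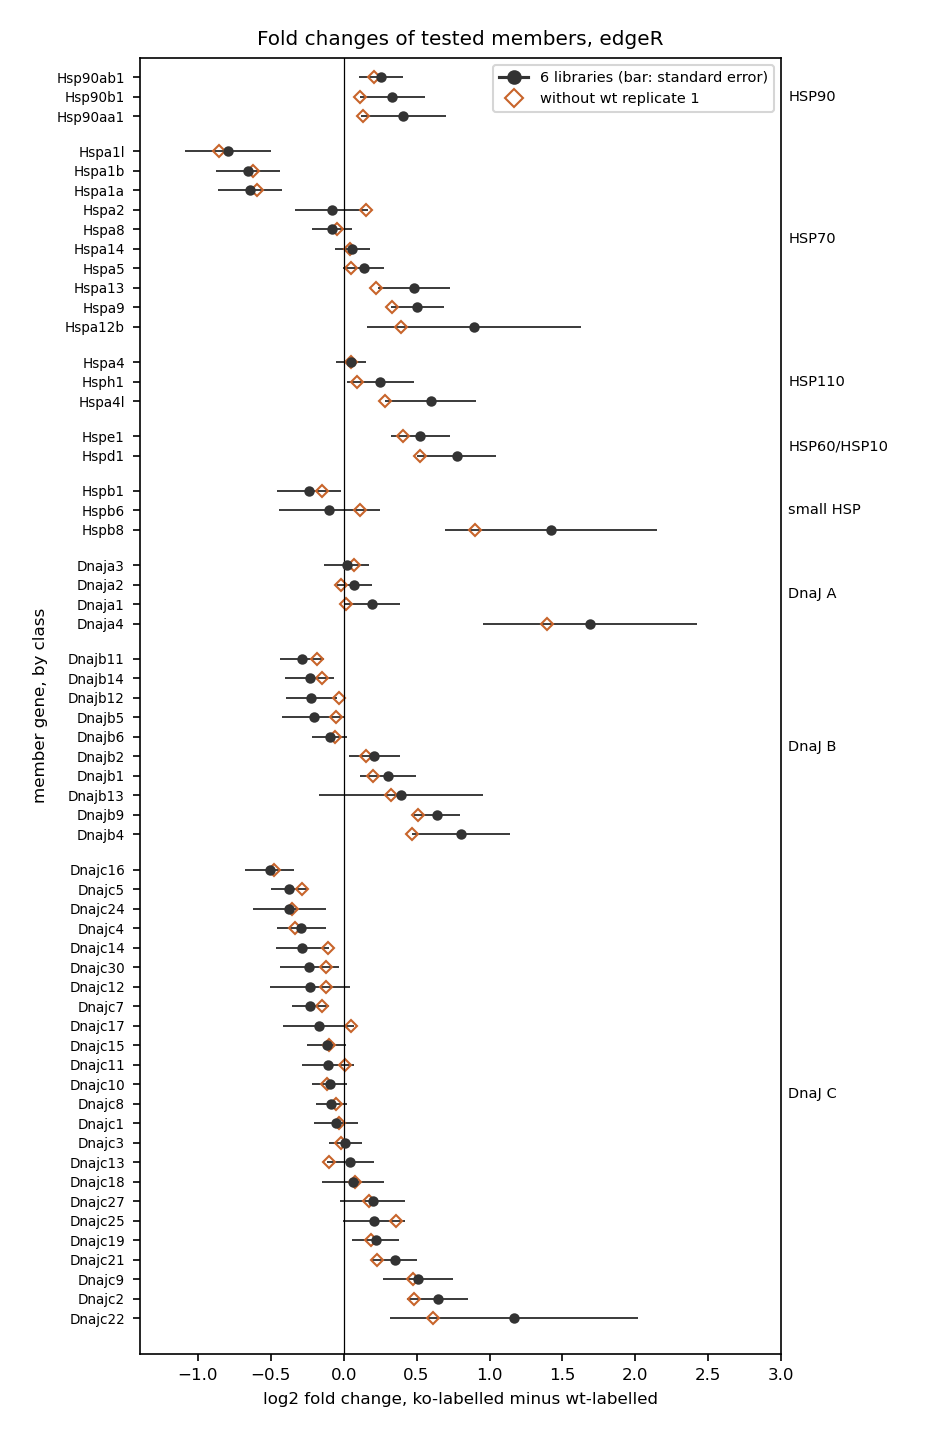
log2 fold change of the 59 tested members, by class and in rising order within a class. Filled points with bars are the estimates from 6 libraries and their SE, and open diamonds are estimates without wt replicate 1. Hspa1l, Hspa1b and Hspa1a lie lowest, at -0.79, -0.66 and -0.64, and keep their place without that library, whereas Hspb8 and Dnajc22 move from 1.42 and 1.17 to 0.90 and 0.62.

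Leaving out wt replicate 1 left 0 of 59 members called by edgeR and 0 by DESeq2, against 0% and 0.566% of all genes, with 11 members at an unadjusted p under 0.05 by edgeR (background 12.2%). Of these, 6 were higher (background 6.81%) and 5 lower (background 5.38%), and groups did not overlap for 17 members (background 31.5%), 11 higher (background 16.6%) and 6 lower (background 14.9%). The median range between the highest and lowest library was 1.62-fold over the members and 1.83-fold over all genes tested, and 1.38-fold and 1.56-fold without that library.

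Other chaperone genes were read from lists of 78 genes, of which 75 were tested. Here too edgeR and DESeq2 called 0, with 13 genes higher (background 6.90%) and 4 lower (background 8.31%) at an unadjusted p under 0.05 by edgeR, and the median log2 fold change was 0.11. Of the 14 tested genes of the cytosolic chaperonin CCT and of prefoldin, which fold actin and tubulin, 12 had an estimate above 0 (background 52.1%). Cct4 was at 168, 215 and 213 CPM in the wt libraries and 271, 267 and 245 CPM in the ko-labelled libraries, without overlap (log2 fold change 0.39, SE 0.14), and Cct8 had an estimate of 0.33 (SE 0.12). Of the 26 co-chaperones of HSP70 and HSP90, 19 had an estimate above 0 (background 52.1%). Cacybp, a partner of the ubiquitin ligase Siah1, was at 38.2, 60.3 and 55.1 CPM in the wt libraries and 87.6, 95.4 and 65.9 CPM in the ko-labelled libraries, without overlap (log2 fold change 0.70, SE 0.21). Ppid, an immunophilin bound to HSP90, was at 18.4, 38.2 and 37.8 CPM in the wt libraries and 61.2, 70.9 and 45.7 CPM in the ko-labelled libraries (log2 fold change 0.91, SE 0.30). Of the 22 genes of the ER list, 13 had an estimate below 0 (background 47.9%). Edem1, which marks ER proteins for degradation, had an estimate of -0.43 (SE 0.15), and Atf4, a transcription factor of the integrated stress response, had one of 0.47 (SE 0.15).

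The 9 tested mitochondrial chaperone and protease genes outside the members had a median of 0.14. Grpel2, an exchange factor of Hspa9, had an estimate of 0.55 (SE 0.23), and Afg3l2, a protease of the inner membrane, had one of -0.17 (SE 0.11). The related Grpel1, at a higher level than Grpel2 in every library, had an estimate of 0.14 (SE 0.12). Of the heat shock factors, Hsf2 was higher in each ko-labelled library, whereas Hsf1 overlapped between the groups. Hsf1, the main inducer of the cytosolic members, was at 36.3, 30.3 and 29.4 CPM in the wt libraries and 33.3, 37.2 and 28.1 CPM in the ko-labelled libraries. It overlapped, and its estimate of 0.04 (SE 0.16) changed sign when single libraries were left out and was 0.14 without wt replicate 1. Hsf2 was at 16.5, 19.2 and 22.7 CPM in the wt libraries and 26.3, 25.4 and 28.2 CPM in the ko-labelled libraries, without overlap (log2 fold change 0.45, SE 0.16), and Hsf4 had an estimate of 0.81 (SE 0.54), which was 0.41 without wt replicate 1.

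Markers of the sorted cells and of growth had ranges that differed between the groups. The 12 macrophage markers, with Adgre1, Itgam and Ptprc among them, summed to 16498 to 22012 CPM in the wt libraries and 9845 to 16333 CPM in the ko-labelled libraries, and all 12 had an estimate below 0. The 13 cell cycle genes summed to 257 to 566 CPM in the wt libraries and 577 to 825 CPM in the ko-labelled libraries, and all 13 had an estimate above 0. Neither pair of ranges overlapped, in both cases by a narrow margin. Lyz2 was the largest part of the macrophage sum. It was at 14139, 10367 and 9350 CPM in wt and 7495, 5663 and 9694 CPM in ko-labelled libraries, which overlapped. Adgre1 and Ptprc (log2 fold change -0.49 and -0.09) also overlapped between the groups, whereas Itgam (-0.49) did not. The 7 T cell genes tested summed to 24.1 to 89.2 CPM and 74.2 to 202 CPM, the 7 NK cell genes to 26.3 to 50.1 CPM and 42.2 to 128 CPM, and the 8 neutrophil genes to 1695 to 1907 CPM and 732 to 1480.0 CPM. All 7 T cell and all 7 NK cell genes had an estimate above 0, and all 8 neutrophil genes had one below 0. The neutrophil ranges did not overlap either, whereas those of the T cell and NK cell genes did. Epithelial markers, which could come from the carcinoma, summed to 36.1 to 138 CPM and 129 to 192 CPM. Of the 4 tested, 2 had an estimate above 0 and 2 below. The difference in the sum came mostly from Krt8, at 9.89, 117 and 59.1 CPM in wt and 171, 165 and 105 CPM in ko-labelled libraries. Cdh1 had an estimate of -0.41, at 24.3, 14.1 and 16.6 CPM in wt and 13.7, 9.42 and 18.2 CPM in ko-labelled libraries, which overlapped. Krt7 had one of -1.03 at a very low level, 0.928, 0.338 and 0.454 CPM in wt and 0.305, 0.286 and 0.246 CPM in ko-labelled libraries. Wt replicate 1 was the highest library for both. No list had a gene at 0 in every library. The part of these cells and of the cell cycle in the values of Hspd1, Hspe1, Hspa9, Dnajb9, Dnajc2 and Hspa1a was not tested.

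**Figure D5:**
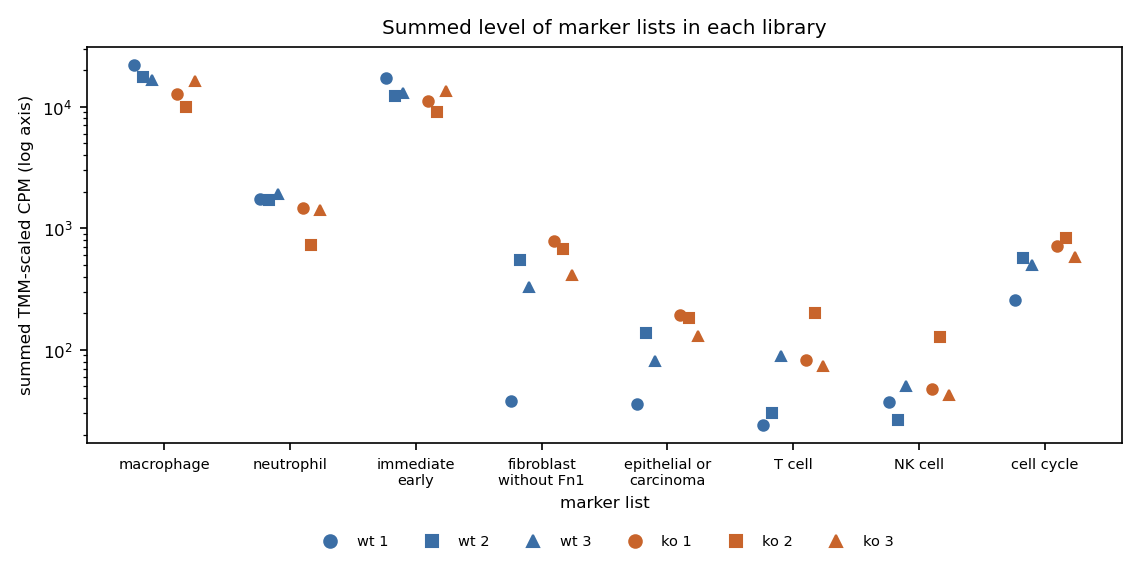
Summed TMM-scaled CPM (log axis) of 8 marker lists in each library, wt in blue and ko-labelled in orange, with circles, squares and triangles for replicates 1, 2 and 3. The macrophage and neutrophil sums are lower and the cell cycle sum higher in each ko-labelled library, and wt replicate 1 is lowest for fibroblast genes without Fn1, at 38.1 CPM.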

How the data were processed

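RNA from 6 samples, 3 labelled wt and 3 labelled ko, was compared. The authors deposited raw gene counts and FPKM values. The deposited FPKM values are those counts over 1 gene length and the library's total, for 100% of nonzero values within rounding. The submitters' processing notes name mm10, and the aligner and counter are not given in the sources used here. Counts were filtered with filterByExpr, scaled by TMM and fitted with edgeR 4.0.16 (glmQLFit, glmQLFTest) in R 4.3.3, with group as the only term, and p-values were adjusted by Benjamini-Hochberg over 13884 genes at a threshold of 0.05. An SE was obtained as the log2 fold change over the square root of F. DESeq2 1.42.0, limma 3.58.1 on log2 FPKM plus 1 or plus 0.1, other scalings, other filters, a block for the replicate number and leaving out each library were alternatives. The fits were tested on simulated data with the same spread for all genes and no outlying library, unlike these data. That test therefore does not measure what the fits would find here. FPKM served to compare levels between genes.

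Members were matched by symbol. The members, gene lists and tests were chosen with earlier results of these data known. Genes named were 16 fixed members, the 5 of the smallest p in each direction, those without overlap, the 5 of the highest FPKM, the 3 of the largest range, Npm1, Hsf1, Hsf2 and the 2 of the smallest p in each other list. Members named beyond these, to complete a class, and Grpel1 were chosen after their values were seen. The summed fit of Hspa1a and Hspa1b and the fibroblast sum without Fn1 were added after the data were seen. Coordinates are from GENCODE M21 (GRCm38) and promoter windows from RefSeq. Protein sequences were not used here. Same-numbered samples did not deviate together (correlations of -0.241, 0.0605 and -0.337), so numbers were not taken as pairs, and no pair of libraries within a group agreed within sampling noise (chi-square per gene 34.3 to 146).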

Additional observations from a re-analysis of the deposited data

How the results depend on the processing

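No alternative called a member at an adjusted p under 0.05, and all genes called went from 0 by edgeR to 108 by DESeq2 and to 81 by DESeq2 without wt replicate 1. The median log2 fold change of the members, 0.05 in the report, was 0.0343 with RLE scaling and with DESeq2, 0.0867 with upper quartile scaling, 0.0703 with at least 10 counts in every library, 0.149 and 0.198 with limma on log2 FPKM plus 1 and plus 0.1, and 0.0326 with DESeq2 without wt replicate 1. With each library left out in turn it lay between 0.0387 and 0.0833, members at an unadjusted p under 0.05 numbered 3 without ko-labelled replicate 2 (4.75% of all genes) to 15 without wt replicate 2 (18.8% of all genes), with 5 without ko-labelled replicate 1 (5.49%). Members without overlap numbered 17 without wt replicate 1 (31.5% of all genes) or ko-labelled replicate 2 (30%) to 32 without ko-labelled replicate 3 (49.7%), with 26 without wt replicate 3 (41.8%). Fewer libraries leave less to overlap. Among named genes, Dnajc3 (0.01) came to -0.0029 with RLE scaling, -0.00054 with no filter, -0.0030 and -0.042 with DESeq2 with all libraries and without wt replicate 1, -0.022 without wt replicate 1 and -0.070 without ko-labelled replicate 3, up to 0.0497 without ko-labelled replicate 2. Hsf1 (0.04) came to -0.0023, -0.036 and -0.068 without wt replicate 2, wt replicate 3 and ko-labelled replicate 2, up to 0.137 without wt replicate 1, Dnaja1 to -0.0069 with DESeq2 without wt replicate 1, and Hspa8 to 0.0689 and 0.0690 with limma. With single libraries left out, Dnaja2 lay between -0.0180 and 0.134, Dnaja3 between -0.0486 and 0.0833, Hspa14 between -0.00971 and 0.0941, Hspa2 between -0.288 and 0.153 and Hspb6 between -0.232 and 0.111. With DESeq2 without wt replicate 1, Dnaja2, Hspa2 and Hspb6 came to -0.0392, 0.132 and 0.0903, and with limma Hspa2 came to 0.0763 and 0.0954 and Hspb6 to 0.0290 and 0.0433. The other 38 of 47 named genes kept their direction in each alternative that tested them, and Dnajc22 was not tested with at least 10 counts in every library. With the replicate block, which does not pair these samples, 0 members were called, 10 had an unadjusted p under 0.05 (11.6% of all genes), the median was 0.05 and Npm1 was at 0.62. Depth limits the 7 members that were not tested, with at most 39 counts in a library.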
